A study of Mus musculus with 12 samples.

Results

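The 8 genes Il6, Il6ra, Il6st, Stat3, Socs3, Lif, Lifr and Il11 make up the IL-6 axis together with 2 related cytokines and a related receptor. The genes were followed across mouse skin labelled with or without a transgene for the cytokine IL-17C, and with or without IL-6. They were taken by name from the 22180 genes measured, and all 8 had a row of their own. They were listed by name and not by a threshold on a measured value, although earlier results of these data were known. IL-6 is a secreted cytokine that binds IL-6R, encoded by Il6ra, and the complex then recruits gp130, encoded by Il6st. Gp130 activates JAK kinases, which phosphorylate STAT3, and STAT3 switches on target genes that include its own brake, Socs3. LIF and IL-11 signal through gp130 as well, LIF with the partner receptor encoded by Lifr, and in skin the axis is known for its part in wound repair and psoriasis-like inflammation.

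RNA came from dorsal skin of C57Bl/6 mice, with males and females pooled, and was read on 12 expression arrays. The genotypes were WT, IL-6KO (no functional IL-6), IL-17C+ (carrying an IL-17C transgene) and IL-17C+KO (transgene without IL-6), and transgenic skin was taken from involved, that is affected, and from uninvolved areas. This gave 6 groups, called here WT, IL-17C Uninvolved, IL-17C Involved, IL-6KO, IL-17C x IL-6KO Uninvolved and IL-17C x IL-6KO Involved. Each group had 1 pool from mice aged 10 weeks and 1 pool from mice aged 14 weeks. The WT and IL-6KO pools at 10 weeks held 4 mice each and the other 10 pools held 5, 58 mice in all. For WT and IL-6KO mice the protocol says only that skin of a similar position was taken, although the sample labels call WT skin uninvolved and IL-6KO skin involved. The sources used here give neither the promoter of the transgene nor the part of Il6 that the knockout removes, and they do not say whether involved and uninvolved pools came from the same mice. Every value below is a log2 intensity, and array medians lay between 3.97 and 4.23. Each group therefore has n = 2 pools of different age. The p-values rest on the spread between pools left after group and age, shared over the 6 groups. They do not measure the spread between mice, and the number of arrays limits the precision of every difference.

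All 5 measured keratinocyte genes lay above the array median on all 12 arrays. So did all 8 skeletal muscle, 6 fibroblast, 5 endothelial and 5 adipocyte genes, so these markers do not single out skin. In WT the keratinocyte mean was 9.11 and 9.47 and the muscle mean 10.12 and 10.88. Several arrays stood against their labels. Il6 was higher on 3 of the 4 arrays labelled as lacking it together with the transgene than on any other array, and whether its row reads the disrupted part is unknown. Il17c was at 6.30 and 6.17 for IL-6KO, labelled without transgene, but at 4.74 and 4.16 for IL-17C Uninvolved, below or near the 4.67 and 4.96 of WT. The mean of 9 neutrophil genes was 6.62 and 6.99 for IL-17C x IL-6KO Uninvolved, like the 6.69 and 6.95 of IL-17C Involved, whereas it was 4.03 and 5.12 for IL-17C x IL-6KO Involved. Group names are therefore labels throughout, each direction rests on them, and whether any array is mislabelled was not tested.

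The DNA just before a RefSeq transcription start is shown for Il6 and Socs3, the ligand and the feedback inhibitor of the axis. These 2 windows hold matches to motifs of factors known to act in it. The sequences are RefSeq's for GRCm38.p6, read 5′ to 3′ on the strand of the gene. The Il6 window is chr5:30012864-30013113 on the plus strand and the Socs3 window chr11:117969367-117969616 on the minus strand, each 250 bases long. The Socs3 window lies inside the span of its gene, chr11:117966079-117970336, so the start used there is not the outermost one. Capitals mark every match to 1 of 4 motifs searched on both strands, TTCNNNGAA for STAT proteins, GGGANTTTCC for NF-kB, TTGNGCAA for C/EBP and TGANTCA for AP-1.
Il6 window: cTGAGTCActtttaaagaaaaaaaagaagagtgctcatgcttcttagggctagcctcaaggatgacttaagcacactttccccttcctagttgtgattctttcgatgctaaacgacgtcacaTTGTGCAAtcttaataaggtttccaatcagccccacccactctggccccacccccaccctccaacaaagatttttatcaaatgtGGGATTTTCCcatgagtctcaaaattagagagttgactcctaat
Socs3 window: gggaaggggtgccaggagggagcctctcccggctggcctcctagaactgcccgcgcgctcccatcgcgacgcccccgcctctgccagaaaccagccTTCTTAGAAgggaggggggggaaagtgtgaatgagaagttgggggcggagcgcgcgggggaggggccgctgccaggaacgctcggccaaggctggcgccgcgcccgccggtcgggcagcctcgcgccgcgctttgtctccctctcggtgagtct
The Il6 window held 1 AP-1 match at -249 to -243, 1 C/EBP match at -128 to -121 and 1 NF-kB match at -44 to -35, counted from -1 at the base before the start. The Socs3 window held 1 STAT match at -154 to -146. None of these matches overlap. Among all 32851 such windows of the RefSeq table, 7.02% held the STAT motif, 0.356% the NF-kB motif, 2.61% the C/EBP motif and 6.75% the AP-1 motif. The 8 genes had 10 windows, and beyond those printed 1 Lif window (-228 to -222) and 1 of the Il11 windows (-98 to -92) held an AP-1 match. The windows of Il6ra, Il6st, Stat3 and Lifr held none of the 4 motifs in these letters.

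Among the ligands, Il6 varied most. Its log2 level at 10 and 14 weeks was 2.92 and 2.88 for WT, 2.68 and 2.79 for IL-6KO, 3.28 and 3.02 for IL-17C Uninvolved, 4.23 and 3.21 for IL-17C Involved, 3.14 and 4.64 for IL-17C x IL-6KO Involved, and 4.93 and 5.00 for IL-17C x IL-6KO Uninvolved. Only the last group was high at both ages, and it overlapped no other group. The array from younger IL-17C Involved mice and the array from older IL-17C x IL-6KO Involved mice were the other high ones, so that both involved groups were spread widely and overlapped each other. Il6 lay above the array median on 4 of 12 arrays only, and the WT, IL-6KO and IL-17C Uninvolved levels, all under it, do not tell a low level from absence.

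Lif and Il11 stayed close to one level. Lif, a cytokine named for leukaemia inhibition, ran from 4.35 to 4.87 over the 12 arrays, a range of 0.52, and its SD over arrays stood at percentile 19.1 of all genes. Il11, a cytokine linked to blood formation and fibrosis, ran from 3.36 to 4.22, with a median of 3.64, and was above the array median on 1 array. That array was IL-17C Uninvolved at 14 weeks, and the other array of that group was at 3.64.

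Among the receptors, Il6ra and Lifr had the same lowest group and the same 3 highest groups. Il6ra, the binding chain for IL-6, was at 7.43 and 8.06 for WT, 7.29 and 6.88 for IL-6KO, 8.17 and 7.55 for IL-17C Uninvolved, 6.64 and 6.70 for IL-17C Involved, 7.92 and 7.70 for IL-17C x IL-6KO Involved, and 7.05 and 7.12 for IL-17C x IL-6KO Uninvolved. IL-17C Involved was lowest and overlapped no other group, IL-6KO overlapped IL-17C x IL-6KO Uninvolved, and the remaining 3 groups overlapped each other at the top. Lifr was at 7.90 and 8.27 for WT, 7.48 and 7.60 for IL-6KO, 8.55 and 7.85 for IL-17C Uninvolved, 7.07 and 7.38 for IL-17C Involved, 8.03 and 8.02 for IL-17C x IL-6KO Involved, and 7.53 and 7.72 for IL-17C x IL-6KO Uninvolved. Its lowest group was again IL-17C Involved, without overlap with the others. Over the 12 arrays Il6ra and Lifr correlated at r = 0.94, which is a description of arrays that share group and age.

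Il6st, the shared gp130 chain, gave no such order. Its levels ran from 8.33 to 9.15 with a median of 8.73, and both extremes were WT arrays, at 10 and at 14 weeks. The spread within WT of 0.82 equals the whole range over the arrays.

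Downstream, Stat3 was at 7.91 and 8.04 for WT, 7.94 and 8.41 for IL-6KO, 8.31 and 7.50 for IL-17C Uninvolved, 8.56 and 8.62 for IL-17C Involved, 8.33 and 8.47 for IL-17C x IL-6KO Involved, and 8.72 and 8.62 for IL-17C x IL-6KO Uninvolved. IL-17C Involved and IL-17C x IL-6KO Uninvolved were the highest and lay apart from the other 4 groups. Below them, IL-6KO overlapped each of the other 3, whereas IL-17C x IL-6KO Involved overlapped neither WT nor IL-17C Uninvolved. Socs3, which blocks gp130 signalling, was at 6.20 and 6.24 for WT, 6.31 and 5.80 for IL-6KO, 6.61 and 6.18 for IL-17C Uninvolved, 6.97 and 6.88 for IL-17C Involved, 6.04 and 5.90 for IL-17C x IL-6KO Involved, and 6.65 and 7.11 for IL-17C x IL-6KO Uninvolved. The same 2 groups were highest and overlapped no other. A second Socs3 row of lower signal read 5.18 and 4.55 for IL-17C Involved and 4.36 and 4.87 for IL-17C x IL-6KO Uninvolved. It read 4.40 and 4.28 for WT, 4.59 and 3.99 for IL-6KO, 3.81 and 3.79 for IL-17C Uninvolved, and 3.98 and 3.74 for IL-17C x IL-6KO Involved. On that row IL-17C Involved and IL-17C x IL-6KO Uninvolved both overlapped IL-6KO, and IL-17C x IL-6KO Uninvolved also overlapped WT.

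**Figure D1:**
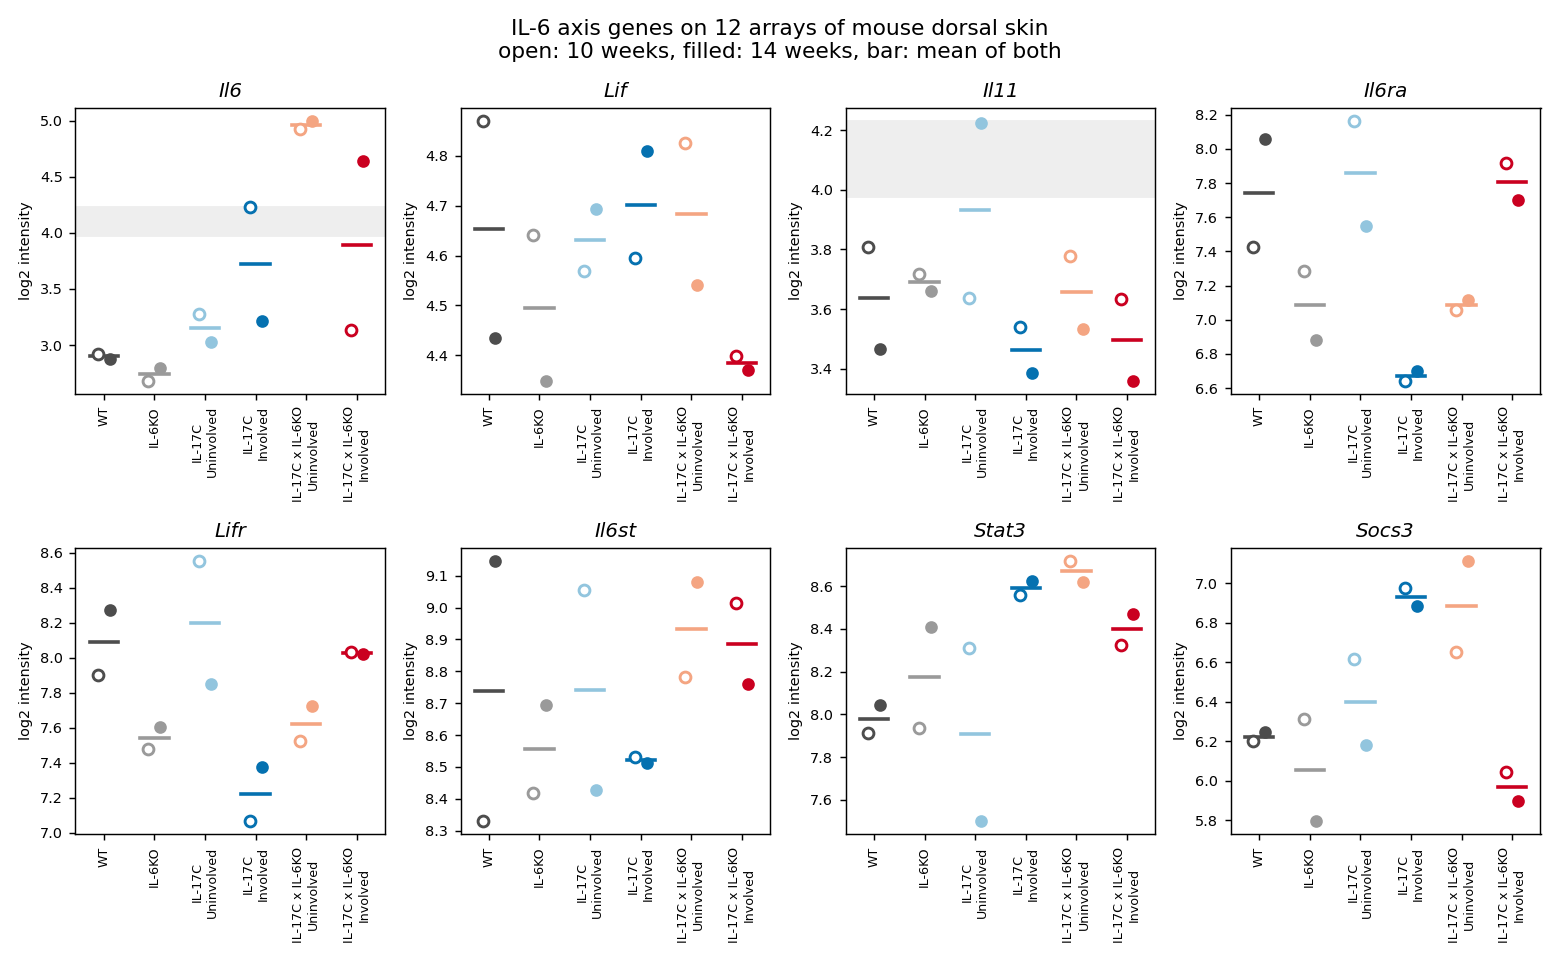
Log2 intensity of the 8 genes by group, with 1 panel per gene. Open points are pools of 10 weeks, filled points pools of 14 weeks, bars their mean, and the grey band the range of array medians, 3.97 to 4.23. Il6 is highest in IL-17C x IL-6KO Uninvolved, at 4.93 and 5.00, while Il6ra is lowest in IL-17C Involved, at 6.64 and 6.70.

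Affected transgenic skin with IL-6 was set against WT and against uninvolved transgenic skin, to ask how the axis responds to IL-17C driven disease. Differences were tested with limma over all 22180 genes, and a gene passed at a Benjamini-Hochberg adjusted p under 0.05. Of the 8 genes 0 passed in IL-17C Involved against WT, where 1.8% of all genes passed, and 3 had an unadjusted p under 0.05, as had 12% of all genes. Il6ra differed by -1.07 ± 0.29 (SE) with a limma adjusted p of 0.0971, Lifr by -0.87 ± 0.28 (adjusted p = 0.186) and Socs3 by 0.71 ± 0.26 (adjusted p = 0.274). All 3 kept their sign at both ages. Il6 differed by 0.82 ± 0.41 (limma adjusted p = 0.467), or 1.30 at 10 weeks and 0.33 at 14 weeks. In bulk skin, fewer cells of a type and less RNA per cell cannot be told apart, for these and all later values.

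Against IL-17C Uninvolved, 0 of the 8 genes passed as well, where 1.61% of all genes did, and 3 had an unadjusted p under 0.05, as had 12.2% of all genes. The Il6ra difference was -1.19 ± 0.29 (limma adjusted p = 0.0697), that of Lifr -0.98 ± 0.28 (adjusted p = 0.127) and that of Stat3 0.69 ± 0.30 (adjusted p = 0.364). With involved and uninvolved skin of one genotype and age taken as a pair, the Il6ra difference of -1.19 ± 0.22 passed, at an adjusted p of 0.0457 in limma. Il6 differed by 0.57 ± 0.41 (limma adjusted p = 0.648) and by -0.08 without the younger IL-17C Involved array. The mean of 8 skeletal muscle markers moved with both receptors, at 7.98 and 7.73 for IL-17C Involved against 10.12 and 10.88 in WT and 10.76 and 10.36 in IL-17C Uninvolved. All 8 muscle markers lay above the array median on every array, and 7 of 8 passed, all lower, in each of these 2 comparisons. With their mean as a covariate, Il6ra differed from WT by -0.16 ± 0.58 and from IL-17C Uninvolved by -0.26 ± 0.59. That covariate took the calls over all genes from 399 and 357 to 0 in these comparisons. Since the muscle mean moved with the groups, this fit cannot tell muscle from group, and the part of muscle was not tested.

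Refitted on the 8 arrays of the first 4 groups, without the IL-17C x IL-6KO arrays, both comparisons again had 0 of the 8 genes past the threshold. Il6ra then had limma adjusted p-values of 0.193 against WT and 0.144 against IL-17C Uninvolved, and Il6 of 0.217 and 0.527. In IL-17C Uninvolved against WT, 0 of the 8 genes passed limma's test, against 0.0541% of all genes, and 0 had an unadjusted p under 0.05, which 5.69% of all genes had. The Il6 difference there was 0.25 ± 0.41 (limma adjusted p = 0.947), with a 95% interval from -0.63 to 1.14.

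Skin labelled IL-6KO was set against WT, to compare skin labelled without and with the ligand, both labelled without the transgene. Of the 8 genes 0 passed, against 0.455% of all genes. Il6 itself differed by -0.16 ± 0.41 (limma adjusted p = 0.965), with both groups under the array median, so that a loss cannot be read here. Il6ra differed by -0.66 ± 0.29 (limma adjusted p = 0.568), mostly from the older pools, at -0.14 for 10 weeks and -1.17 for 14 weeks. The muscle marker mean was 9.18 and 7.94 for IL-6KO.

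Transgenic skin labelled without IL-6 was set against IL-6KO, to compare the axis with and without the transgene by label. The Il17c levels of IL-6KO and the Il6 levels of the transgenic skin, given above, stand against these labels. In IL-17C x IL-6KO Uninvolved against IL-6KO, the Il6 intensity rose by 2.23 ± 0.41 on the log2 scale (limma adjusted p = 0.0388), and by 2.25 and 2.21 at the 2 ages. Since both IL-6KO values lay under the array median, where the signal may not be that of Il6, this is a difference of intensities and no fold is given. It was the only 1 of the 8 genes that passed there, against 0.397% of all genes in either direction. Leaving out 1 array at a time kept the difference between 2.20 and 2.26, but its adjusted p ran from 0.0023 to 0.372. The call was lost without any WT, IL-6KO or IL-17C x IL-6KO Uninvolved array, while leaving out an IL-17C Uninvolved, IL-17C x IL-6KO Involved or IL-17C Involved array kept it. Socs3 differed by 0.83 ± 0.26 in the same comparison (limma adjusted p = 0.383). The neutrophil mean moved with Il6, from 4.31 and 4.76 for IL-6KO to 6.62 and 6.99, although Mpo and Elane, which mark neutrophil precursors, lay under the array median on all 12 arrays. The mean of 6 fibroblast markers went from 9.69 and 9.61 to 10.87 and 11.14 (1 of 6 passed, higher). For WT it was 11.12 and 10.88, and in IL-6KO against WT 3 of the 6 passed, all lower, where 0.455% of all genes passed. The mean of 5 endothelial markers went from 5.93 and 6.05 to 6.51 and 6.94 (0 of 5 passed by limma, 4 at an unadjusted p under 0.05, against 7.45% of all genes). The part of these cells in the Il6 result was not tested.

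In IL-17C x IL-6KO Involved against IL-6KO, 0 of the 8 genes passed, where 0.171% of all genes did. Il6 differed by 1.15 ± 0.41 and Il6ra by 0.72 ± 0.29, each with a limma adjusted p of 0.9995. The Il6 value was 0.45 at 10 weeks and 1.85 at 14 weeks. Within IL-17C x IL-6KO skin, Involved against Uninvolved gave 0 of 8, against 0.505% of all genes. Il6 differed by -1.08 ± 0.41 (limma adjusted p = 0.612), Socs3 by -0.91 ± 0.26 (adjusted p = 0.286) and Il6ra by 0.72 ± 0.29 (adjusted p = 0.680). Without the older IL-17C x IL-6KO Involved array, Il6 passed in this comparison at -1.94 (limma adjusted p = 0.0217).

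Groups labelled without and with IL-6 were also compared within each kind of transgenic skin. Between the involved groups 0 of the 8 genes passed, against 0.649% of all genes. IL-17C x IL-6KO Involved minus IL-17C Involved was 1.14 ± 0.29 for Il6ra (limma adjusted p = 0.121), -0.96 ± 0.26 for Socs3 (adjusted p = 0.155) and 0.81 ± 0.28 for Lifr (adjusted p = 0.322). Il6 differed by 0.17 ± 0.41 (limma adjusted p = 0.958), as -1.09 at 10 weeks and 1.43 at 14 weeks. Between the uninvolved groups 0 of 8 passed too, against 0.712% of all genes. Il6 differed there by 1.82 ± 0.41 (limma adjusted p = 0.0773), Il6ra by -0.77 ± 0.29 (adjusted p = 0.432) and Stat3 by 0.76 ± 0.30 (adjusted p = 0.453). This Il6 difference passed in 4 of 12 fits without 1 array, those without an IL-17C Involved or IL-17C x IL-6KO Involved array.

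**Figure D2:**
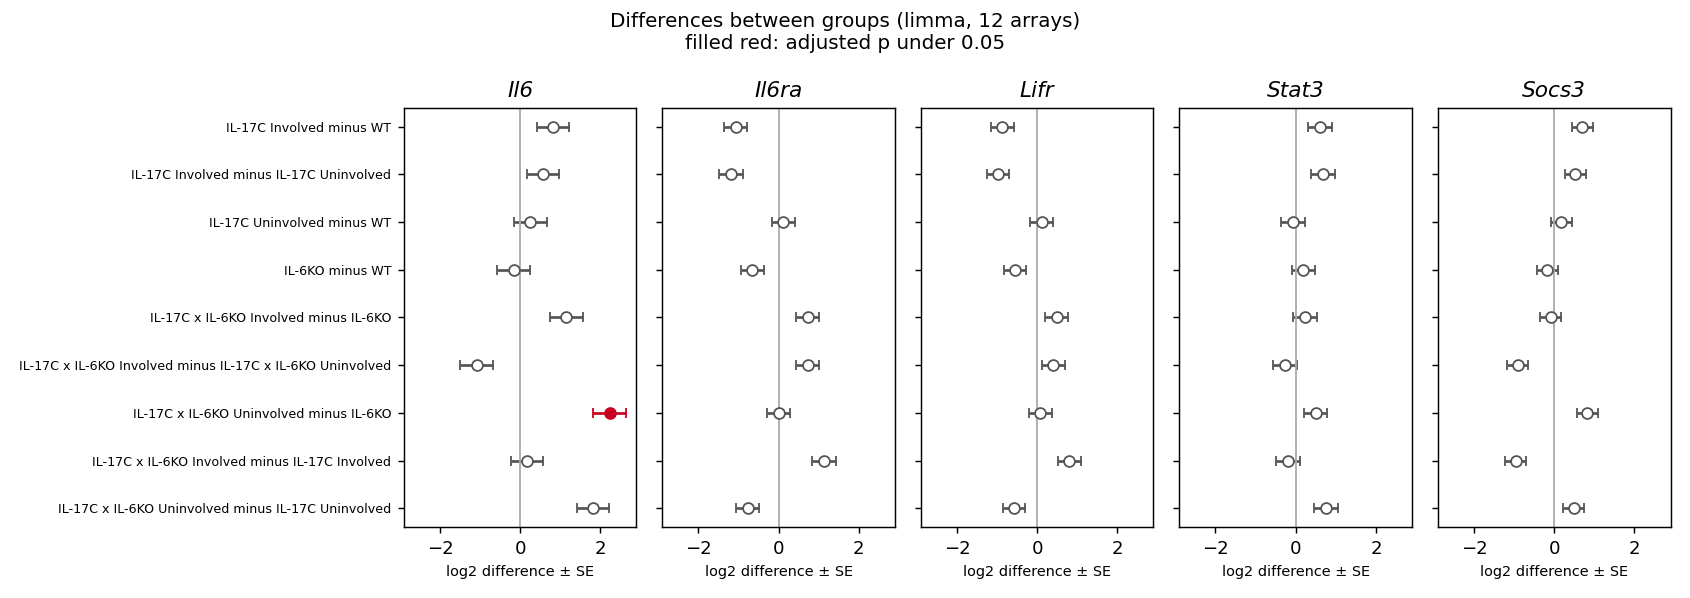
Log2 differences with their SE (bars) for Il6, Il6ra, Lifr, Stat3 and Socs3 in the 9 comparisons between groups, from limma over 12 arrays. Only the Il6 difference of 2.23 between IL-17C x IL-6KO Uninvolved and IL-6KO is filled red, for an adjusted p under 0.05.

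The receptor Il6ra gave the clearest difference of differences. In skin with IL-6 involved minus uninvolved skin was -1.19, and in skin labelled without IL-6 it was 0.72. The site by IL-6 interaction was 1.91 ± 0.41 (limma adjusted p = 0.0283), at 2.38 for 10 weeks and 1.44 for 14 weeks, and Il6ra was the only 1 of the 8 genes past the threshold, against 2.58% of all genes. Without 1 array it ran from 1.59 to 2.23 and passed in 5 of 12 fits. It was lost without either array of IL-17C Involved, IL-17C x IL-6KO Involved or IL-17C x IL-6KO Uninvolved, and without the younger IL-17C Uninvolved array. The muscle mean moved in the same way, and 6 of its 8 genes passed with a positive interaction. With that mean as a covariate the Il6ra interaction was 0.70 ± 0.79 (limma adjusted p = 0.9997), in a fit that cannot tell muscle from group.

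Other members had interactions of the same kind that did not pass. Socs3 was at -1.44 ± 0.37 (limma adjusted p = 0.0666), Lifr at 1.38 ± 0.40 (adjusted p = 0.106), Il6 at -1.65 ± 0.58 (adjusted p = 0.217) and Stat3 at -0.96 ± 0.42 (adjusted p = 0.383). With the mean of both its rows, Socs3 passed at -1.63 ± 0.36 (limma adjusted p = 0.0361). In the transgene by IL-6 interaction, which compares IL-17C Involved minus WT with IL-17C x IL-6KO Involved minus IL-6KO, 0 of the 8 genes passed, against 1.31% of all genes. Il6ra was at 1.79 ± 0.41 (limma adjusted p = 0.0571), Lifr at 1.35 ± 0.40 (adjusted p = 0.166) and Il6 at 0.33 ± 0.58 (adjusted p = 0.936). These interactions share arrays with each other and with the comparisons above. Both rest on the IL-17C x IL-6KO labels, and without those arrays they cannot be formed.

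Between 14 and 10 weeks, over all groups, 0 of the 8 genes passed by limma and 0 had an unadjusted p under 0.05, against 0% of all genes passing and 8.37% at an unadjusted p under 0.05. Differences by age within a group ran both ways, for Il6 from -1.02 in IL-17C Involved to 1.502 in IL-17C x IL-6KO Involved.

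Marker means of other cells lay beside several members. Over the 12 arrays, which share group and age, Il6ra correlated with the muscle mean at r = 0.90 and Lifr at r = 0.83. Both also correlated with the neutrophil mean, Il6ra at r = -0.78 and Lifr at r = -0.69. Socs3 correlated with the macrophage and dendritic cell mean at r = 0.81, with the mast cell mean at r = 0.80 and with the neutrophil mean at r = 0.72. Of 6 mast cell markers 3 passed, all higher, in IL-17C Involved against WT, where 1.1% of all genes passed as higher. Against IL-17C Uninvolved 3 passed as well, all higher, where 0.775% of all genes did. The mean of the 6 markers was 6.67 and 6.54 for IL-17C Involved and 5.01 and 5.22 for WT. Stat3 correlated with the keratinocyte mean at r = 0.86 and with the neutrophil mean at r = 0.79, Il6 with the neutrophil mean at r = 0.72 and Il6st with the endothelial mean at r = 0.81. The part of these cells in the members' levels was not tested, and the fit with the muscle covariate cannot tell muscle from group.

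**Figure D3:**
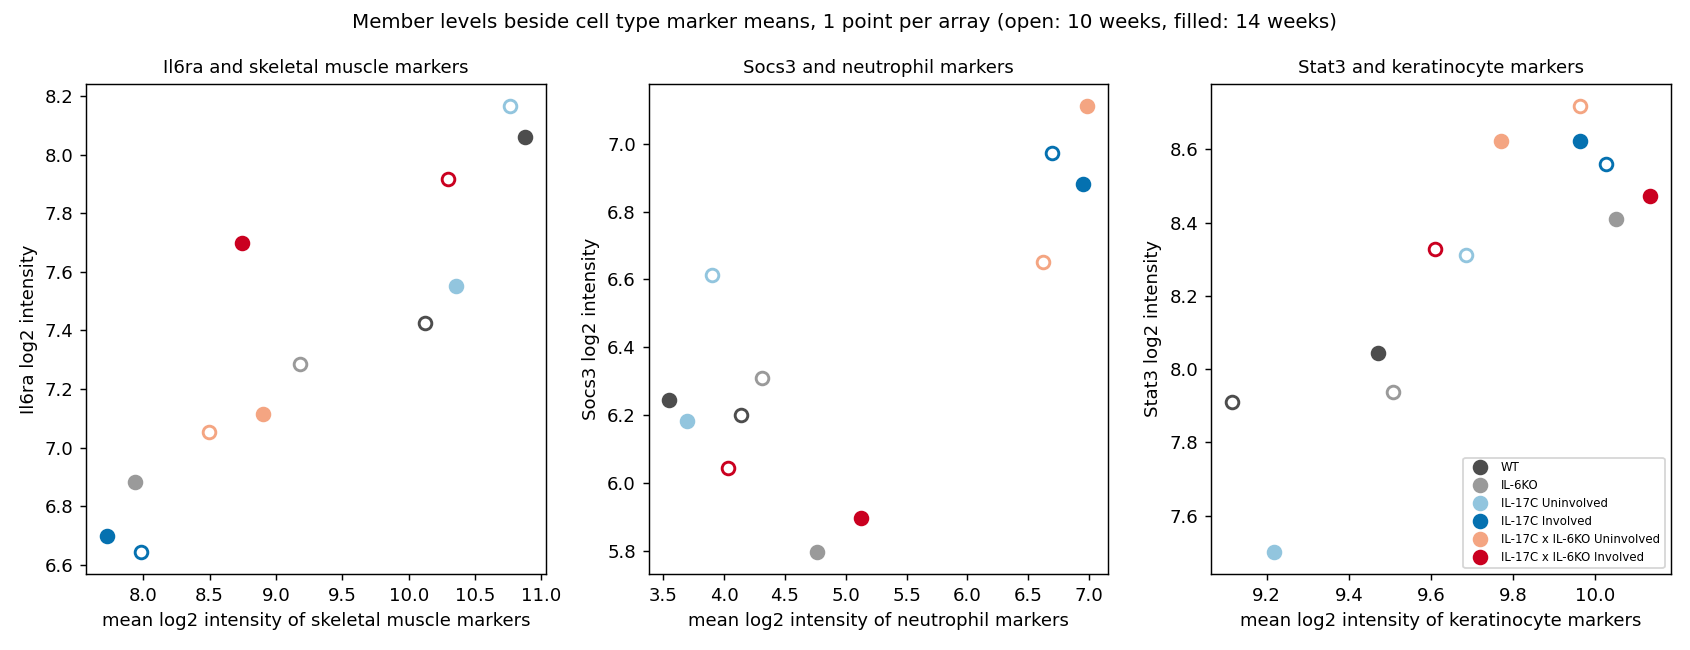
Levels of Il6ra, Socs3 and Stat3 (vertical, log2 intensity) against the mean log2 intensity of skeletal muscle, neutrophil and keratinocyte markers, with 1 point per array, coloured by group, open at 10 weeks and filled at 14 weeks. Il6ra is higher where the muscle mean is higher, with IL-17C Involved at the lower left (r = 0.90 over 12 arrays).

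Other cytokines and receptors of the family add to this. Of 7 measured further ligands, 1 passed at most in any comparison, where between 0% and 2.58% of all genes passed. That 1 was always Osm, oncostatin M, which signals through gp130 with the partner encoded by Osmr. Osm was at 4.77 and 4.42 for WT, 4.99 and 4.15 for IL-6KO, 4.17 and 4.54 for IL-17C Uninvolved, 5.65 and 6.13 for IL-17C Involved, 4.22 and 4.10 for IL-17C x IL-6KO Involved, and 5.98 and 6.43 for IL-17C x IL-6KO Uninvolved. The 2 groups with high neutrophil means thus held its 4 highest levels. Osm rose by 1.53 in IL-17C Involved over IL-17C Uninvolved (limma adjusted p = 0.0287) and by 1.85 in IL-17C x IL-6KO Uninvolved over IL-17C Uninvolved (adjusted p = 0.016). It differed from WT by 1.30 ± 0.31 in IL-17C Involved without passing (limma adjusted p = 0.0595), and its site by IL-6 interaction was -3.58 ± 0.44 (adjusted p = 0.000991). Osmr passed in 0 comparisons.

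Among 6 further receptor and shedding genes, only 1 passed in any comparison, where between 0% and 2.58% of all genes passed. This was Il31ra, the receptor chain for the itch cytokine IL-31. It was at 6.83 and 7.34 for WT, 5.24 and 5.47 for IL-6KO, 7.99 and 7.42 for IL-17C Uninvolved, 3.78 and 4.49 for IL-17C Involved, 6.95 and 5.98 for IL-17C x IL-6KO Involved, and 4.86 and 4.37 for IL-17C x IL-6KO Uninvolved. The last group and IL-17C Involved were both low and overlapped. Il31ra fell by 3.57 in IL-17C Involved against IL-17C Uninvolved (limma adjusted p = 0.000481) and its site by IL-6 interaction was 5.42 ± 0.52 (adjusted p = 0.000116). Of 20 measured JAK kinases, other STATs and their regulators 0 passed in any comparison by limma, and between 0 and 7 of them had an unadjusted p under 0.05. The 7 belong to the site by IL-6 interaction, in which 11.7% of all genes had such a p.

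The list of 20 genes known to respond to STAT3 was chosen with earlier results of these data known. Its counts beside the share of all genes are therefore a description only. Of the 20 genes, 5 rose in IL-17C Involved over WT, where 1.1% of all genes rose, with a median difference of 0.84 against 0.0099 over all genes. Over IL-17C Uninvolved 6 rose, where 0.775% of all genes did, with a median of 0.63 against 0.018. Those with the largest rises over WT were Saa3, an acute phase protein, which rose by 6.64 over WT (limma adjusted p = 7.87e-05), Timp1, a protease inhibitor, by 3.10 (adjusted p = 0.0024) and Lcn2, an iron-binding neutrophil and keratinocyte product, by 3.08 (adjusted p = 0.0041). In IL-17C x IL-6KO Uninvolved 4 rose over IL-6KO, against 0.392% of all genes (median 0.86, against -0.0060), among them Saa3 by 7.08. In IL-17C x IL-6KO Involved against IL-6KO 0 of 20 passed by limma, with 3 at an unadjusted p under 0.05, against 3.94% of all genes. IL-17C x IL-6KO Involved against IL-17C Involved had 3 of 20, all lower, where 0.649% of all genes passed, with Saa3 at -5.54. Against IL-17C x IL-6KO Uninvolved it had 3 of 20, all lower, where 0.505% of all genes passed, with Saa3 at -6.38. Between the uninvolved groups 5 of 20 passed, all higher in IL-17C x IL-6KO Uninvolved, where 0.712% of all genes passed. The site by IL-6 interaction was lower for 7 of 20, against 1.43% of all genes (median -1.004, against 0.0039), with Saa3 at -12.94. On the 8 arrays without IL-17C x IL-6KO, 4 of 20 passed against WT and 5 against IL-17C Uninvolved, where 1.88% and 1.73% of all genes passed. In IL-6KO against WT, Lcn2 was the only 1 of the 20 that passed, where 0.455% of all genes did. It was higher there by 2.47 (limma adjusted p = 0.0376), with neutrophil means of 4.31 and 4.76 for IL-6KO and 4.14 and 3.55 for WT. Lcn2 is also a neutrophil granule protein. The neutrophil mean was high in IL-17C Involved and IL-17C x IL-6KO Uninvolved, and its part in these results was not tested.

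**Figure D4:**
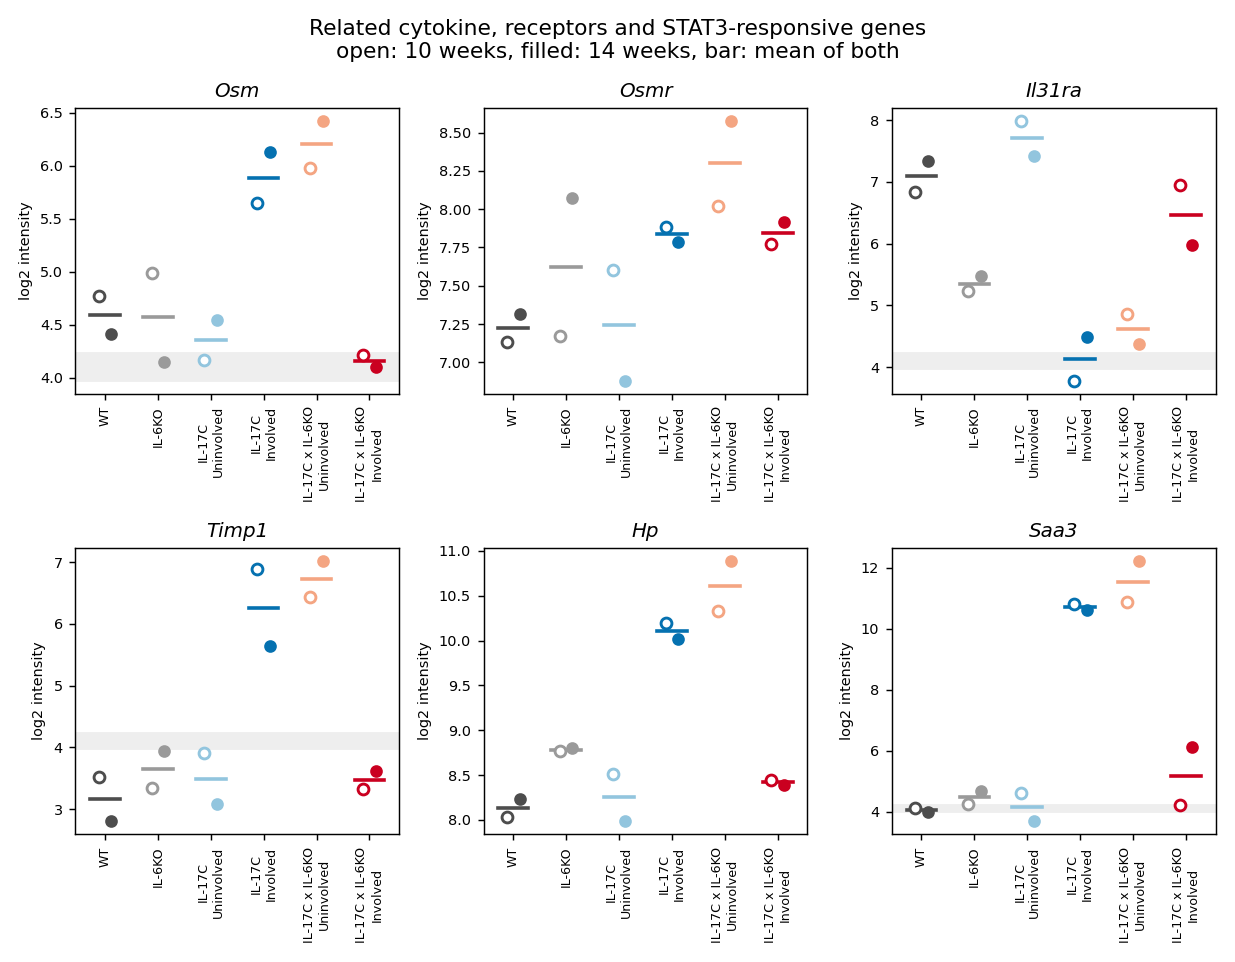
Log2 intensity of Osm, Osmr, Il31ra, Timp1, Hp and Saa3 by group, drawn as for the 8 genes. Osm is highest in IL-17C Involved (5.65 and 6.13) and IL-17C x IL-6KO Uninvolved (5.98 and 6.43), the groups in which Il31ra is lowest.

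For each member, the genes most like it in pattern were those of highest correlation over the 12 arrays. They were Kcne4, Sele and Tpm3 for Il6 (r from 0.87 to 0.91), and Slc7a6, Sptb and Abcc9 for Il6ra (r from 0.95 to 0.96). For Lifr they were Add3, Abcc9 and Ctso (r from 0.96 to 0.97), so that Abcc9 appeared beside both receptors. Stat3 stood next to Entpd7, Icam1 and Hbegf (r from 0.93 to 0.96) and Socs3 next to Col4a1, Pxdn and Trem3 (r from 0.94 to 0.95). Il6st was closest to Cped1, Tlr3 and Pde8a (r from 0.93 to 0.95), Lif to Nphs1, AF357355 and Gpr132 (r from 0.86 to 0.88) and Il11 to Mir3060, Fhod3 and Krt74 (r from 0.80 to 0.88).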

How the data were processed

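The authors deposited 1 table of array intensities on a linear scale, made by RMA in Affymetrix Expression Console per the submitters' processing notes, which give no versions. RMA corrects background, normalizes across arrays and gives 1 value per row, and it is known to compress differences of dim rows. Here log2 was taken. Of 41345 rows, 23521 name 1 gene in the platform annotation, and of several rows for a gene the one of highest mean was kept, leaving 22180 genes.

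Group plus age, with age as a block, was fitted over all 12 arrays with limma 3.58.1 in R 4.3.3 (lmFit, eBayes with an intensity trend), leaving 5 residual degrees of freedom and adding 7.65. Adjustment was by Benjamini-Hochberg over every gene tested in a comparison. The code was tested on simulated data. Age is a labelled factor, and the age differences of 15 pairs of groups correlated between -0.21 and 0.52 over genes, with 7 above 0.1. Alternatives were no block, a block of genotype and age, no trend, a filter on dim genes, another quantile normalization, the mean of rows, a muscle covariate, leaving out each array, and, chosen after seeing the data, the 8 arrays without IL-17C x IL-6KO.

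Members are named in all comparisons. From each pathway list at most 3 passing genes and the largest non-passing one were eligible to be named, and most like genes needed an SD of at least 0.3. Members and lists were chosen with earlier results of these data known. Some genes of the pathway and marker lists were not analysed here.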

Additional observations from a re-analysis of the deposited data

Results flagged for a closer look

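The site by IL-6 interaction of Il6ra, 1.91 ± 0.41, was a difference between 2 genotypes in the same contrast that passed its own test (limma adjusted p = 0.0283). Involved minus uninvolved skin was -1.19 with IL-6 and 0.72 in skin labelled without it. The sign held at both ages. The value beside the muscle covariate was 0.70 ± 0.79, in a fit that cannot tell muscle from group.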

How the results depend on the processing

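The number of members that passed depended on the setting in 5 comparisons, and in 7 where fits without 1 array are included. Il6 in IL-17C x IL-6KO Uninvolved against IL-6KO stayed at 1 of 8 with no replicate block (adjusted p = 0.0353) and with the muscle covariate (0.0141), and went to 0 with eBayes without the trend (0.0626) and with another quantile normalization (0.0602). The site by IL-6 interaction had 2 members past the threshold with the filter on dim genes (above the median of 2 or more arrays), 3 with quantile normalization, 2 with the mean of rows and 0 with the muscle covariate. The transgene by IL-6 interaction had 1 (Il6ra) with that filter and with quantile normalization. IL-17C Involved had 1 with quantile normalization against WT and against IL-17C Uninvolved, and 1 against the latter with a replicate block of genotype and age. The fit with no replicate block changed none of these counts. Without 1 array, counts ran from 0 to 2 for the site by IL-6 interaction, and from 0 to 1 for IL-17C Involved against WT and against IL-17C Uninvolved, for both comparisons of IL-17C x IL-6KO Uninvolved, for IL-17C x IL-6KO Involved against Uninvolved and for the transgene by IL-6 interaction.

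With the muscle covariate Il6 turned to -0.48 against WT and -0.76 against IL-17C Uninvolved in IL-17C Involved and to 0.0816 in the site by IL-6 interaction, Il6ra to 0.0071 in IL-6KO against WT and Lcn2 to 0.16 in IL-17C x IL-6KO Involved against IL-17C Involved. Without 1 array, Il6 ran from -0.0791 to 1.21 in IL-17C Involved against IL-17C Uninvolved, from -0.70 to 1.04 in IL-17C x IL-6KO Involved against IL-17C Involved and from -0.53 to 1.20 in the transgene by IL-6 interaction. Ebi3 ran from -0.60 to 0.0131 in IL-6KO against WT, Osm from -0.92 to 0.0896 in IL-17C x IL-6KO Involved against IL-6KO, Adam17 from -0.39 to 0.0168 in IL-17C x IL-6KO Involved against IL-17C Involved, and Osmr from -0.83 to 0.0556 in the transgene by IL-6 interaction. The causes were not tested. Of all refitted member differences 99 changed sign, and 0 of these were past the threshold by limma in either fit.

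Over all genes, the muscle covariate took IL-17C Involved against WT from 399 to 0 calls, against IL-17C Uninvolved from 357 to 0 and the site by IL-6 interaction from 573 to 16, and no replicate block took IL-6KO against WT from 101 to 26. Without 1 array, the calls over all genes ran from 65 to 509 and from 63 to 519 in the first 2 of these (lowest without an IL-17C Involved array), from 208 to 731 in the site by IL-6 interaction, and from 15 to 164 in IL-17C x IL-6KO Uninvolved against IL-6KO. The fit on 8 arrays, chosen after seeing the data, gave 418 and 383 calls for IL-17C Involved against WT and against IL-17C Uninvolved. Il6 and Il11 lie low on most arrays, Il11 gave no value under the filter, and n = 2 pools per group limits all differences.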

Other observations

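Hair shaft genes, known to follow the hair cycle, differed between groups. The mean of 5 measured hair shaft genes was 4.29 and 4.98 for WT and 3.95 and 5.72 for IL-17C x IL-6KO Involved, against 8.61 and 8.73 for IL-6KO, 7.83 and 8.82 for IL-17C Uninvolved, 7.56 and 6.57 for IL-17C Involved and 7.37 and 7.60 for IL-17C x IL-6KO Uninvolved. All 5 rose in IL-6KO over WT, where 0.455% of all genes passed, and all 5 fell in IL-17C x IL-6KO Involved against IL-6KO, where 0.171% passed, by the same limma test.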
